A study of Homo sapiens with 12 samples.

Results

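CIRBP, RBM3 and the 4 CDC-like kinases CLK1, CLK2, CLK3 and CLK4 were followed across 3 groups of HepG2 cells, a human hepatoma line with hepatocyte features. These 6 genes of the 57500 in the count files were chosen by name, CIRBP because it was higher than wild type in both altered lines. The CIRBP differences between groups are therefore given as a description, with no test. The other 5 genes joined as its paralogue and as kinases linked to temperature-dependent splicing.

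RNA was sequenced from 12 libraries, 4 per group, all from cells kept for 24 h in normal medium with 400 µM glycine. The study concerned cyanide that cells make from glycine, and thiosulfate sulfurtransferase (TST, rhodanese), a mitochondrial enzyme that detoxifies it. The WT group was wild-type control HepG2. The shTST group carried a commercial TST shRNA plasmid delivered by lentivirus, and the overTST group carried a codon-optimized TST coding sequence behind a CMV promoter in a lentiviral vector with blasticidin resistance. WT cells were not stated to carry an empty vector or a control shRNA. A change in TST and the effects of transduction, selection or separate passage thus cannot be told apart in the comparisons with WT. The altered lines carried different constructs, so TST and such effects cannot be told apart in their direct comparison either. Libraries were described as independent replicates, and the study defined these as different experimental days.

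CIRBP and RBM3 are small, closely related RNA-binding proteins, each with 1 RNA-recognition motif and a glycine-rich tail, whose transcripts accumulate when cells are cooled mildly. Both act on the stability, translation and polyadenylation of other transcripts. The CLKs phosphorylate SR proteins, the serine- and arginine-rich splicing factors, and thereby release them from nuclear speckles. CLK activity rises as temperature falls, and alternative splicing of CIRBP and of the CLK transcripts themselves is temperature dependent.

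CIRBP (ENSG00000099622) lies on the plus strand of GRCh38 at chr19:1259384-1274880 and RBM3 (ENSG00000102317) on the plus strand at chrX:48574449-48579066. CLK1 (ENSG00000013441) occupies chr2:200853009-200864744, CLK2 (ENSG00000176444) chr1:155262868-155278491 and CLK4 (ENSG00000113240) chr5:178602664-178630615, all on the minus strand. CLK3 (ENSG00000179335) is on the plus strand at chr15:74598500-74645414. The counts cover all annotated exons of a gene, 3670 bases for CLK2 and 20443 for CLK3 at the extremes, and do not separate isoforms. Productive and intron-retaining or exon-skipped CLK or CIRBP transcripts therefore cannot be told apart here.

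The 250 bases upstream of the annotated start are shown for the cold-inducible pair, CIRBP and the 1 tested member, RBM3, that passed against WT in both lines. They were taken from RefSeq on GRCh38.p14, plus strand, CIRBP at chr19:1269082-1269331 and RBM3 at chrX:48574234-48574483. Capitals mark matches on either strand to the GC box GGGCGG, the CCAAT box and the ETS core CCGGAA, of which the last was added after the sequences had been read.
CIRBP: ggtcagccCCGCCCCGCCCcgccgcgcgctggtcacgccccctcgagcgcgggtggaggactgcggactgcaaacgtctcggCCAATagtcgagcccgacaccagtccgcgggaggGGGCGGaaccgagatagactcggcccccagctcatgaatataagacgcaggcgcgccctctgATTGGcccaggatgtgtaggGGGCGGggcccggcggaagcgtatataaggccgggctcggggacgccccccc
RBM3: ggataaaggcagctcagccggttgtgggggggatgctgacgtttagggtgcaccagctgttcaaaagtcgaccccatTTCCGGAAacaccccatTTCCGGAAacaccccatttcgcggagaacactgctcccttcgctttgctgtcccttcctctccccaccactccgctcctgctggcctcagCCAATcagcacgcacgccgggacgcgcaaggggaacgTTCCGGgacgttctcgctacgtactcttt

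The CIRBP window held 4 GC boxes and 2 CCAAT boxes, whereas the RBM3 window held no GC box, 1 CCAAT box and 5 ETS cores on the 2 strands, 4 of them in a pair of palindromes. Of 35093 promoter windows of this length, 42.6% held a GC box, 32% a CCAAT box and 14.5% an ETS core. Of the 6 members, 5 had a GC box, RBM3 being the exception, and 3 had a CCAAT box (CIRBP, RBM3 and CLK3). The CRE half-site TGACG was found for RBM3, CLK1, CLK3 and CLK4 (21.2% of windows), the E box CACGTG for CLK2 and CLK4 (6.34%), and the heat shock spacing GAANNTTC for RBM3 (5.78%), where it overlapped an ETS core. The mild cold response element TCCCCGCC, a GC-rich sequence known from the mouse Cirbp promoter, is held by 7.76% of windows and was in none of the members' windows, nor was the full CRE TGACGTCA (1.65%). RefSeq gave CLK1 and CLK3 a second window each, and other start sites within the gene spans were not searched.

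Sequencing depth ran from 28866175 to 45120508 counts in the WT libraries, from 27527854 to 33865386 in shTST and from 22911380 to 27414142 in overTST. WT replicate 2 was the deepest. The mitochondrial share of counts was 6.91%, 9.42%, 6.95% and 11.98% in WT replicates 1 to 4. It was 6.84% to 8.65% in shTST and 10.84% to 11.73% in overTST. Chi-square per gene between 2 replicates was 6.30 for WT 1 and 3 and 17.49 to 38.90 for all other WT pairs. It was 4.69 to 8.90 within shTST and 3.78 to 10.47 within overTST. The part of this spread within WT in the comparisons with WT was not tested. TST fell from 49.0 ± 2.59 CPM (counts relative to the scaled library size) in WT to 34.1 ± 1.62 in shTST (n = 4 each, SD), and its log2 fold change was −0.52 (edgeR adjusted p = 3.2e-06). In overTST it stood at 57.9 ± 4.90 CPM (SD, n = 4; log2 fold change 0.24, edgeR adjusted p = 0.00384), a call lost after correction for a trend with gene length (0.083, edgeR adjusted p = 0.277). These counts need not include the codon-optimized transcript. All 9 hepatocyte markers, ALB, AFP and HNF4A among them, were at 1 TPM or more in every group. Of 8 markers of other cell types, 3 or 4 reached 1 TPM, with a summed level of 132 to 186 TPM in WT, 179 to 192 in shTST and 141 to 152 in overTST. Most of that sum was EPCAM and ACTA2, which averaged 105 and 50.8 TPM in WT. PTPRC was at 0 TPM in WT, COL1A2 at 0.00879 and VWF at 0.0363. The part of these markers in the results below was not tested.

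Compared per length of exon, as length-scaled counts (TPM), the cold-inducible pair stood far above the kinases. RBM3 was the most abundant member in WT at 103 ± 17.3 TPM, followed by CIRBP at 56.9 ± 7.90 (SD, n = 4). Among the kinases CLK2 led at 12.3 ± 1.74 TPM, ahead of CLK1 at 4.55 ± 0.586, CLK3 at 3.70 ± 0.225 and CLK4 at 1.15 ± 0.198 (SD, n = 4). The order was the same in all 3 groups, and only the ranges of CLK1 and CLK3 in WT overlapped between neighbours. The low TPM of CLK3 goes with its long annotated exons, since its CPM was the highest of the kinases. The order of RBM3 and CIRBP also rests on annotated length, 3731 and 6368 exonic bases. In CPM their WT ranges overlapped (115 to 153 and 122 to 138). CIRBP was then the higher of the pair in shTST (178 against 159 CPM) and overTST (186 against 154).

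CLK2 supplied 56.6% ± 5.43 of the summed CLK TPM in WT, 55.8% ± 0.549 in shTST and 53.1% ± 1.91 in overTST (SD, n = 4). CLK1 made up 21.0% ± 3.50, 25.1% ± 0.865 and 23.9% ± 2.03 in the same order. The share of CLK3 was 17.1% ± 1.07 in WT, 13.6% ± 0.971 in shTST and 17.4% ± 0.590 in overTST, and the shTST libraries (12.8% to 14.8%) lay below all others. This share depends on the other kinases too and carries no test. In CPM, CLK3 of WT replicate 1 (24.7) lay within the shTST range (21.5 to 25.2). CLK4 stayed between 4.03% and 6.80% of the sum in every library. All these shares rest on the annotated exonic lengths, 3670 bases for CLK2 and 20443 for CLK3. By CPM, CLK3 stood above CLK2 in WT (27.0 against 16.2).

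CIRBP was higher in both altered lines than in WT, by similar amounts in scaled counts (CPM). Its level was 138, 122, 130 and 123 CPM in WT replicates 1 to 4, 175, 174, 182 and 184 in shTST, and 174, 189, 194 and 186 in overTST. Neither altered line overlapped WT (as for 8.38% of genes in the higher direction in shTST and 14.2% in overTST), whose highest library lay 35.3 CPM below the lowest of the others. The fitted change was 1.39-fold in shTST (log2 0.48, standard error 0.0455) and 1.45-fold in overTST (log2 0.53, standard error 0.0519). Of all genes tested, 3.05% had at least as high a log2 fold change in shTST and 3.31% in overTST. Both comparisons use the same 4 WT libraries. Across the alternative settings the log2 difference ranged from 0.46 to 0.50 in shTST and from 0.51 to 0.59 in overTST. On unscaled TPM the rise was less alike, with a log2 difference of 0.52 in shTST and 0.29 in overTST. The lowest overTST library (66.3 TPM) then lay just above the highest WT library (66.0 TPM).

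The shTST and overTST ranges of CIRBP overlapped. The 4 libraries of one ran from 174 to 184 CPM and those of the other from 174 to 194. The direct log2 fold change of shTST over overTST was −0.057 (standard error 0.0471), and −0.11 with a correction for gene length. Since both lines were in the choice of CIRBP, this difference carries no test either. TST itself differed between these lines by −0.76 on the same scale (edgeR adjusted p = 3.3e-09).

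**Figure D1:**
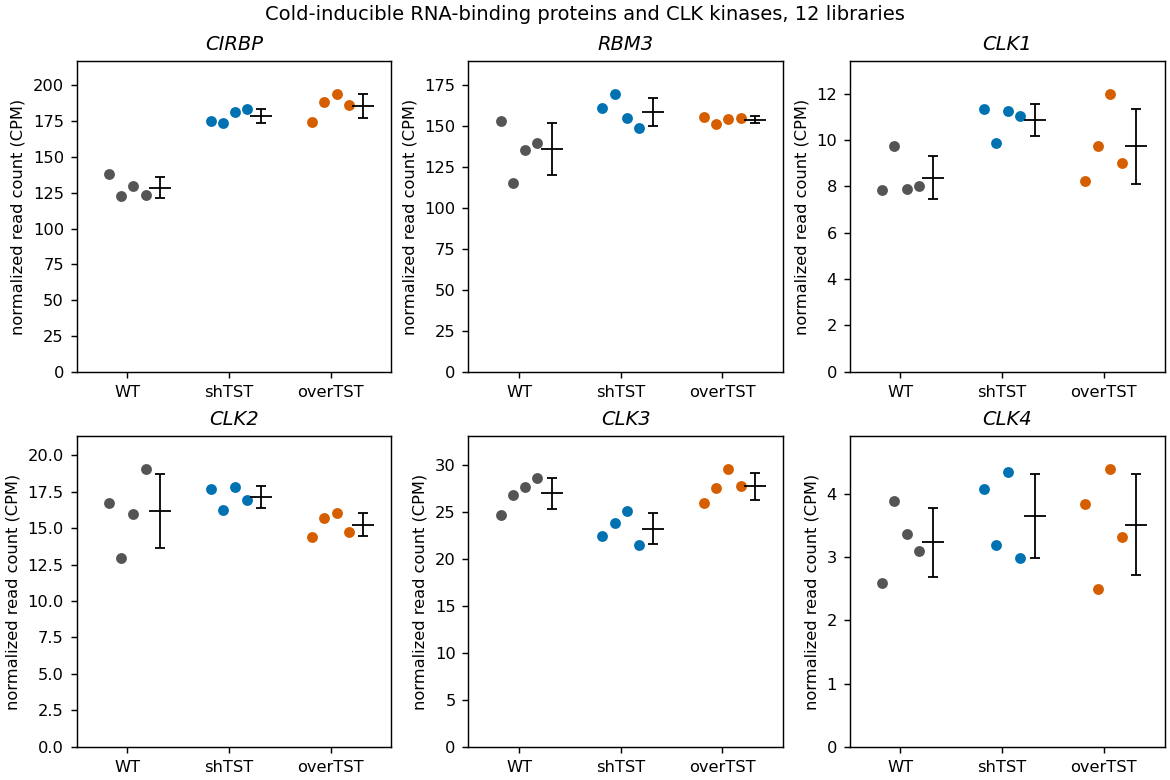
Normalized read counts (CPM, linear axes from 0) of the 6 members in each of the 12 libraries; points are replicates 1 to 4 from left to right and black bars are the mean ± SD (n = 4). CIRBP, chosen for its rise, separates WT (122 to 138 CPM) from both altered lines (174 to 194 CPM). The shTST libraries of CLK3 (21.5 to 25.2 CPM) all lie below those of overTST (26.0 to 29.5 CPM), as for 14.7% of all genes.

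RBM3, the X-linked paralogue of CIRBP, rose by a smaller amount in both lines. It stood at 153, 115, 136 and 140 CPM in WT replicates 1 to 4, at 161, 170, 155 and 149 in shTST, and at 156, 151, 154 and 155 in overTST. WT was the most dispersed group, with a coefficient of variation of 11.7% against 5.47% and 1.27%, and WT replicate 1 reached into the range of both altered lines. In shTST the log2 fold change was 0.23 (standard error 0.0628, edgeR adjusted p = 0.0166), and 16.1% of all genes tested passed the threshold in that comparison, 6.69% of all genes tested in the higher direction. It was 0.18 in overTST (standard error 0.0629, edgeR adjusted p = 0.0278), where 33.9% of all genes tested passed, 15.7% of all genes tested in the higher direction. The direct difference between the lines was 0.043 (standard error 0.0602, edgeR adjusted p = 0.627).

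Both RBM3 calls were close to the threshold. In shTST the call was lost without shTST replicate 2, at a similar log2 fold change (0.20, edgeR adjusted p = 0.0501). In overTST it was lost without WT replicate 2, the lowest for RBM3 (0.11, edgeR adjusted p = 0.132), without overTST replicate 3 (0.18, edgeR adjusted p = 0.0642) or replicate 4 (0.18, edgeR adjusted p = 0.0552), and after the length correction (0.14, edgeR adjusted p = 0.0791).

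Relative to its paralogue, RBM3 was therefore lower in the altered lines. The ratio of RBM3 to CIRBP TPM was 1.81 ± 0.148 in WT, 1.52 ± 0.124 in shTST and 1.42 ± 0.0760 in overTST (SD, n = 4). It ran from 1.60 to 1.94 in WT and from 1.36 to 1.53 in overTST, without overlap, while shTST (1.39 to 1.67) overlapped WT. The choice of CIRBP for its rise enters this ratio, so it carries no test.

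Among the kinases, CLK1 rose in shTST. CLK1 is a dual-specificity kinase whose own transcript is spliced into an active and a catalytically inactive form. It was measured at 7.84, 9.75, 7.88 and 8.0 CPM in WT, 11.3, 9.85, 11.3 and 11 in shTST, and 8.21, 9.74, 12 and 9.0 in overTST. The shTST libraries lay above all WT libraries, as for 8.38% of all genes, by a narrow margin over WT replicate 2. The overTST libraries overlapped both groups. The log2 fold change in shTST was 0.37 (standard error 0.0899, edgeR adjusted p = 0.00712), beside the 6.69% of all genes that passed in that direction. With every library left out in turn it stayed between 0.34 and 0.46 and kept the call.

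CLK1 in overTST was 0.21 above WT on the log2 scale (standard error 0.111, edgeR adjusted p = 0.149), which passed the threshold without overTST replicate 1 (0.28, edgeR adjusted p = 0.0476). The direct difference of shTST from overTST was 0.16 (standard error 0.104, edgeR adjusted p = 0.256). It passed without overTST replicate 3 (0.28, edgeR adjusted p = 0.0466). A difference in CLK1 between the altered lines is thus not shown, although only one of them passed against WT.

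CLK3 moved the other way in shTST. This kinase, known for its high expression in testis, had 24.7, 26.9, 27.7 and 28.7 CPM in WT, 22.5, 23.9, 25.2 and 21.5 in shTST, and 26.0, 27.6, 29.5 and 27.8 in overTST. WT replicate 1 fell within the shTST range, while overTST lay wholly above shTST. Against WT the log2 fold change in shTST was −0.21 (standard error 0.0653, edgeR adjusted p = 0.0280), and 9.4% of all genes passed in that direction. Directly against overTST it was −0.25 (standard error 0.0666, edgeR adjusted p = 0.00479), in a comparison where 33.0% of all genes tested passed, 16.1% of all genes tested lower in shTST, and where 14.7% had groups without overlap in that direction. In overTST CLK3 was 0.039 from WT (standard error 0.0668, edgeR adjusted p = 0.688).

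The call against WT was lost without WT replicate 3 (log2 −0.20, edgeR adjusted p = 0.0574), WT replicate 4 (−0.18, adjusted p = 0.110), shTST replicate 1 (−0.19, adjusted p = 0.0946) or shTST replicate 4 (−0.17, adjusted p = 0.115). CLK3 also had the longest exonic length of the members, and the correction for gene length moved it most, to 0.24 in overTST against WT (edgeR adjusted p = 0.0119) and −0.44 in shTST against overTST. EDC3, a gene of the opposite strand with 873 to 2370 counts per library, shares 701 exonic bases with CLK3, or 3.43% of its exons. Whether counting used the strand was not stated in the sources used here, so reads from that stretch cannot be assigned to either gene. CIRBP and RBM3 each overlap an antisense gene too, with 10 to 22 and 11 to 30 counts, and the annotated pseudogenes of CLK2 and CLK3 had at most 2 counts in any library.

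CLK2 and CLK4 did not pass in any comparison. CLK2, a speckle kinase also known as a suppressor of hepatic gluconeogenesis, had 16.7, 12.9, 16.0 and 19.0 CPM in WT, 17.6, 16.2, 17.8 and 16.9 in shTST, and 14.4, 15.7, 16.0 and 14.7 in overTST. All shTST libraries lay above all overTST libraries, a log2 difference of 0.17 (standard error 0.0891, edgeR adjusted p = 0.144), while 14.5% of all genes had such groups in that direction. Against WT its log2 fold change was 0.092 in shTST (standard error 0.0889, edgeR adjusted p = 0.532) and −0.082 in overTST (standard error 0.0949, edgeR adjusted p = 0.539).

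CLK4, the closest relative of CLK1, was the scarcest kinase, with 59 to 177 counts per library. It stood at 2.58, 3.89, 3.36 and 3.10 CPM in WT, 4.08, 3.18, 4.35 and 2.99 in shTST, and 3.84, 2.5, 4.38 and 3.32 in overTST, with all groups overlapping. The log2 fold changes were 0.17 in shTST (standard error 0.150, edgeR adjusted p = 0.494), 0.12 in overTST (standard error 0.163, edgeR adjusted p = 0.621) and 0.052 directly (standard error 0.166, edgeR adjusted p = 0.844). At its depth counting alone gives a coefficient of variation of 9.31% in WT and 10.8% in overTST, against 16.8% and 22.9% between replicates.

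**Figure D2:**
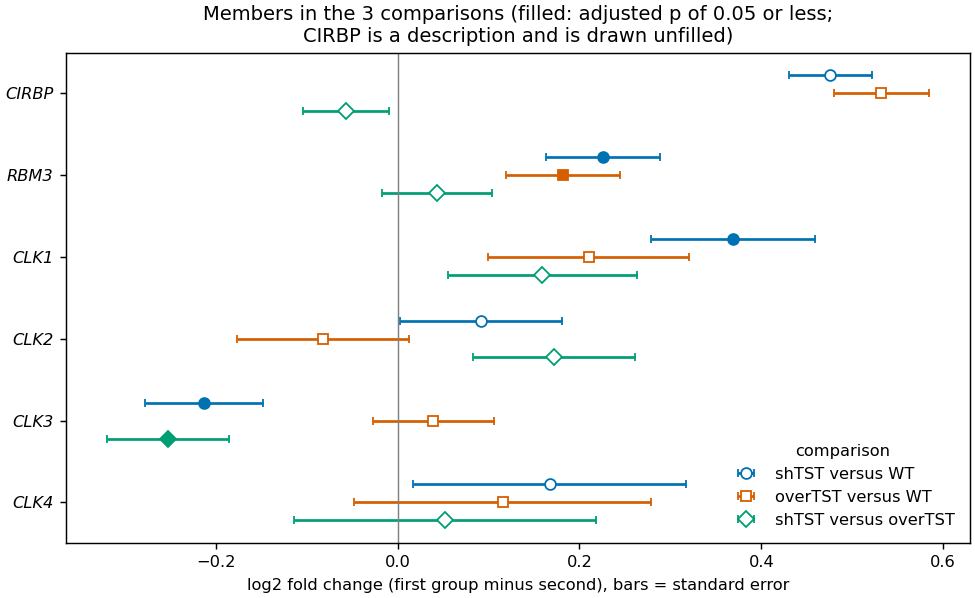
Log2 fold change of each member (horizontal axis, first group minus second; bars are the standard error) in the 3 comparisons, filled where the edgeR adjusted p was 0.05 or less. RBM3 is filled against WT in both lines, CLK1 and CLK3 in shTST, and CLK3 in the direct comparison, and the CIRBP changes of 0.48 and 0.53, drawn unfilled because the gene was chosen for them, lie farthest right.

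The 5 members other than CIRBP were chosen by name, but with earlier results of these data known. Of these, 3 passed in shTST against WT (RBM3 and CLK1 higher, CLK3 lower), where 16.1% of all genes passed. In overTST against WT 1 passed (RBM3) beside 33.9% of all genes, and in the direct comparison 1 (CLK3) beside 33.0%, no larger a share than among all genes. The normalization set some of these directions. On the unscaled TPM of the libraries the median of all genes tested was −0.23 (log2) in overTST against WT, and RBM3, CLK1, CLK3 and CLK4 were then lower in overTST by 0.016 to 0.19. Relative to that median they were higher by 0.042 to 0.22. CIRBP was 0.29 higher in overTST on TPM and 0.52 above the median. In the direct comparison that median was 0.29, and CLK3 was 0.032 higher in shTST on TPM but 0.26 below the median, and CIRBP 0.23 higher but 0.056 below it. All group comparisons given here use counts scaled by TMM (trimmed mean of M-values), which sets most genes as unchanged. Total RNA per cell was not measured, and in bulk RNA fewer expressing cells and less RNA per cell cannot be told apart.

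The SR proteins, which the CLKs phosphorylate, were described by a list of 12 genes. This list and those that follow were written with earlier results of these data known. In shTST 3 rose and none fell, where 6.69% of all genes rose and 9.4% fell, with a median log2 fold change of 0.066 against 0.0040 for all genes. SRSF2 rose from 128 ± 10.7 to 152 ± 7.95 CPM (log2 0.25, edgeR adjusted p = 0.00319) and SRSF5 from 163 ± 8.40 to 190 ± 12.7 (log2 0.23, edgeR adjusted p = 0.00364; SD, n = 4). In overTST 4 rose and 2 fell (15.7% and 18.2% of all genes), with a median of 0.067. SRSF5 was again higher at 192 ± 11.4 CPM (log2 0.24, edgeR adjusted p = 0.000982), as was SRSF9 (log2 0.25, edgeR adjusted p = 0.00115). SRSF10, a splicing repressor that is dephosphorylated on heat shock, fell by 0.23 (edgeR adjusted p = 0.000779) and the scarce SRSF12 by 0.51 (edgeR adjusted p = 0.0253).

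SR-related splicing proteins formed a longer list of 27 genes. In shTST 6 rose and none fell, 22.2% of the list where 6.69% of all genes rose, with a median of 0.11. RSRC2, a serine- and arginine-rich coiled-coil protein, rose from 34.1 ± 1.42 to 46.6 ± 4.6 CPM (log2 0.45, edgeR adjusted p = 7.18e-05; SD, n = 4). CCNL2, the cyclin L2 of nuclear speckles, rose from 15.7 ± 0.749 to 20.9 ± 1.78 CPM (log2 0.42, edgeR adjusted p = 0.000436). In overTST 9 rose, 33.3% of the list against 15.7% of all genes, and 3 fell, with a median of 0.066 against 0.0019. PPIG, a nuclear cyclophilin with an SR domain, rose from 154 ± 7.99 to 237 ± 15.3 CPM (log2 0.62, edgeR adjusted p = 1.58e-08), and LUC7L3, a U1 snRNP-associated factor, from 84.6 ± 4.86 to 126 ± 8.47 (log2 0.57, edgeR adjusted p = 1.06e-07). Transcripts of the large speckle scaffold proteins went down, SRRM2 by 0.34 (edgeR adjusted p = 4.5e-05) and SON by 0.19 (edgeR adjusted p = 0.00257).

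Other kinases of SR proteins and the DYRK and HIPK relatives of the CLKs were represented by 11 tested genes. In shTST 1 passed, the low-abundance DYRK1B (0.747 ± 0.115 to 1.24 ± 0.269 CPM, log2 0.72, edgeR adjusted p = 0.0370), and with single libraries left out its adjusted p rose to as much as 0.113. In overTST 7 of the 11 fell, 63.6% of the list where 18.2% of all genes fell, and the median was −0.21. HIPK3 fell by 0.38 (edgeR adjusted p = 0.000745) and HIPK1 by 0.37 (edgeR adjusted p = 0.000634), nuclear kinases that phosphorylate transcription regulators. SRPK1, SRPK2, PRPF4B, DYRK2 and HIPK2 made up the rest. DYRK4 rose from 9.69 ± 0.313 to 12.7 ± 0.949 CPM (log2 0.38, edgeR adjusted p = 0.00114), and DYRK1B by 0.63 (edgeR adjusted p = 0.0463). After the length correction 5 genes of this list passed in place of 9.

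Transcripts whose retained introns are sensitive to CLK activity were followed as a set of 3. The set held OGT and OGA, which put O-GlcNAc on proteins and take it off, and MAT2A, which makes S-adenosylmethionine. All 3 rose in shTST, where 6.69% of all genes rose, OGA from 34.5 ± 3.12 to 41.3 ± 1.77 CPM (log2 0.26, edgeR adjusted p = 0.00627) and MAT2A from 77.1 ± 3.49 to 89.6 ± 7.98 (log2 0.22, edgeR adjusted p = 0.0109; SD, n = 4), and without shTST replicate 1 only 1 of the 3 passed. In overTST MAT2A fell to 66.3 ± 2.38 CPM (log2 −0.22, edgeR adjusted p = 0.00263) and the other two did not pass. In the direct comparison all 3 were higher in shTST (16.9% of all genes), MAT2A by 0.43 (edgeR adjusted p = 4.78e-06) and OGA by 0.36 (edgeR adjusted p = 0.000154).

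**Figure D3:**
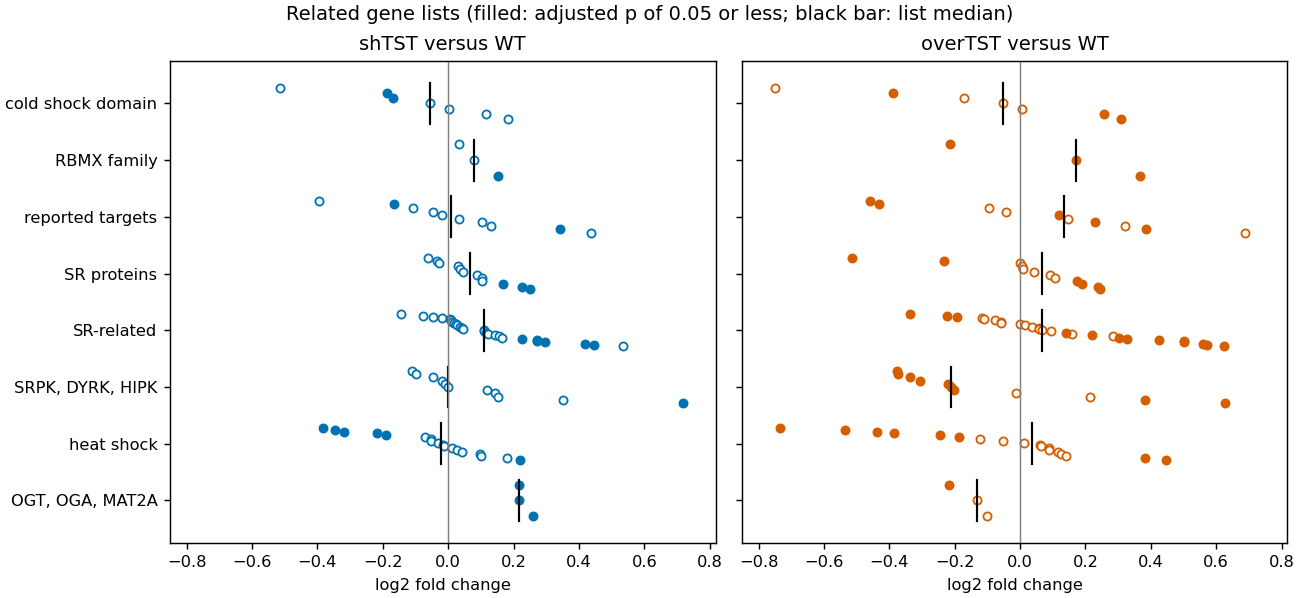
Log2 fold changes against WT (horizontal axis) of the genes of 8 related lists in shTST (left) and overTST (right), 1 point per gene, filled where the edgeR adjusted p was 0.05 or less, with the list median as a black bar. No SR or SR-related gene is filled left of 0 in shTST, and 7 of 11 SRPK, DYRK and HIPK kinases are filled left of 0 in overTST.

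Transcripts reported as targets of CIRBP or RBM3, or as receptors for extracellular CIRBP, were tested for 10 of 13 listed genes. RPA2, a subunit of the single-stranded DNA-binding replication protein A, rose in both lines, from 32.2 ± 2.02 CPM in WT to 40.8 ± 2.44 in shTST (log2 0.34, edgeR adjusted p = 0.000493) and 37.7 ± 1.82 in overTST (log2 0.23, edgeR adjusted p = 0.00649; SD, n = 4). HIF1A, the oxygen-regulated transcription factor, fell by 0.17 in shTST (edgeR adjusted p = 0.0276), a call lost in 5 of 8 fits with a library left out, and by 0.46 in overTST (edgeR adjusted p = 2.94e-06). In overTST thioredoxin TXN rose from 109 ± 8.50 to 142 ± 5.83 CPM (log2 0.39, edgeR adjusted p = 1.25e-05) and the checkpoint kinase ATR fell from 12.6 ± 0.935 to 9.35 ± 1.30 (log2 −0.43, edgeR adjusted p = 0.00131). In all, 1 gene rose and 1 fell in shTST (6.69% and 9.4% of all genes), and 3 rose and 2 fell in overTST (15.7% and 18.2% of all genes).

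Cold shock domain proteins, which share a nucleic acid-binding fold but not the RNA-recognition motif of CIRBP, moved in both directions. Of 7 tested, 2 fell in shTST (9.4% of all genes) and, in overTST, 2 rose and 1 fell (15.7% and 18.2% of all genes). In shTST the 2 were YBX3, which fell by 0.17 (edgeR adjusted p = 0.00915), and LIN28B, by 0.19 (edgeR adjusted p = 0.0146). In overTST LIN28B fell by 0.39 (edgeR adjusted p = 0.000103), while CARHSP1 rose by 0.31 (edgeR adjusted p = 4.03e-05) and YBX1 by 0.26 (edgeR adjusted p = 0.00114). Among the listed genes of the RBMX name, RBMX is a glycine-rich RNA-binding protein near CIRBP in sequence. RBMX rose by 0.15 in shTST (edgeR adjusted p = 0.0180) and 0.17 in overTST (edgeR adjusted p = 0.00764). Also in overTST RBMX2 rose by 0.37 (edgeR adjusted p = 0.000964), and RBMXL1, a near-identical retrocopy of RBMX whose reads are uncertain, fell by 0.21 (edgeR adjusted p = 0.0359).

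The heat shock genes are induced at the opposite end of the temperature range. In shTST 5 of 18 fell and 1 rose, where 9.4% of all genes fell and 6.69% rose, and in overTST 6 fell and 2 rose, where 18.2% fell and 15.7% rose, beside medians of −0.023 and 0.037. HSPA8, the constitutive HSP70 chaperone, fell from 874 ± 50.9 CPM to 701 ± 72.7 in shTST (log2 −0.32, edgeR adjusted p = 0.00125) and 525 ± 55.7 in overTST (log2 −0.73, edgeR adjusted p = 1.58e-08; SD, n = 4). CHORDC1, an HSP90 co-chaperone, fell by 0.35 in shTST (edgeR adjusted p = 0.00125), and HSPH1 by 0.54 in overTST (edgeR adjusted p = 1.16e-06). HSPE1, the mitochondrial co-chaperonin, rose from 438 ± 19.7 CPM to 510 ± 13.3 in shTST (log2 0.22, edgeR adjusted p = 0.00199) and 597 ± 12.7 in overTST (log2 0.45, edgeR adjusted p = 4.37e-07), and the small chaperone HSPB1 rose by 0.38 in overTST (edgeR adjusted p = 0.000146). HSPA8, HSPE1, YBX1 and RBMX have processed pseudogenes or retrocopies, so part of their reads may be assigned elsewhere.

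The genes closest to CIRBP in pattern were sought among 9140 genes by the root-mean-square difference of log2 CPM, each centred on its mean over the 12 libraries. Of the nearest genes, KMT2E stood at 0.0799, VMA21 at 0.0835, NDUFB1 at 0.0846 and HNRNPDL at 0.0910, where the median of all genes was 0.274. HNRNPDL, a heterogeneous nuclear ribonucleoprotein, averaged 226 CPM in WT, 287 in shTST and 290 in overTST, and KMT2E, a chromatin regulator, 29.3, 39.3 and 40.6. For CLK1 the nearest were DDX39B (0.104), an RNA helicase of splicing and export, CASP2 (0.111), C1orf109 (0.118), DYRK1A (0.128) and C16orf87 (0.128), beside a median of 0.246. DYRK1A, a relative of the CLKs, averaged 24 CPM in WT, 26.7 in shTST and 23.8 in overTST, with log2 fold changes of 0.15 in shTST (edgeR adjusted p = 0.126) and −0.013 in overTST (edgeR adjusted p = 0.911). All these points share the same libraries and scaling factors, and the distances carry no test.

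**Figure D4:**
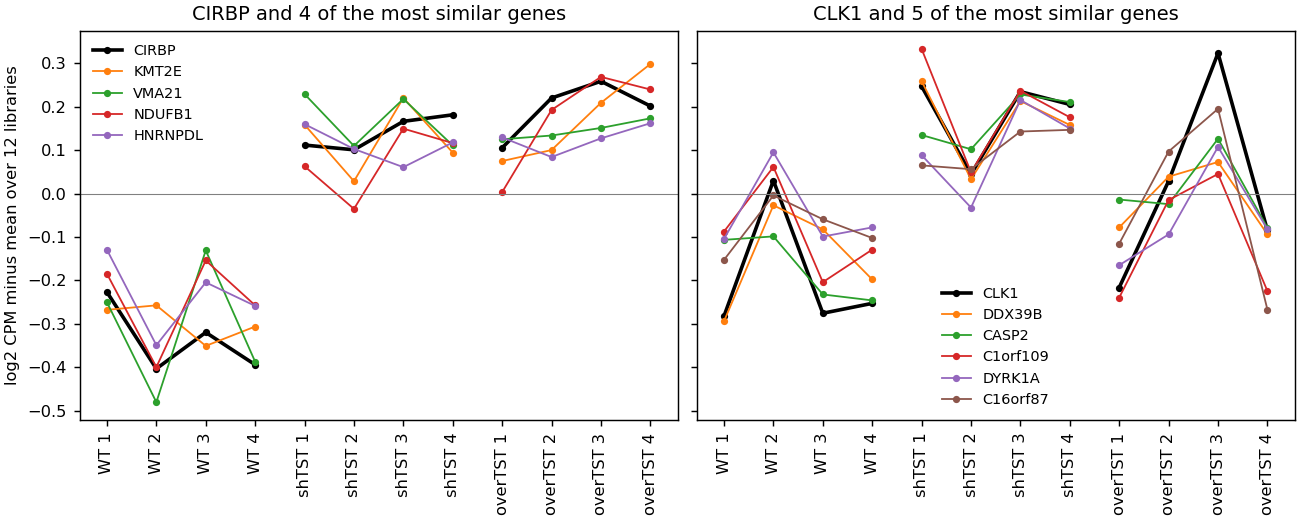
Log2 CPM minus the mean over the 12 libraries (vertical axis) of CIRBP (left) and CLK1 (right), in black, and, in colour, 4 and 5 of the genes nearest to them, for WT, shTST and overTST replicates 1 to 4. CIRBP averages −0.34 in WT, 0.14 in shTST and 0.20 in overTST, and CLK1 averages −0.20, 0.18 and 0.013, with its WT replicate 2 above the other WT libraries.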

How the data were processed

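RNA of 12 HepG2 libraries was analysed in 3 groups of 4, named from the sample labels. The authors deposited whole-number read counts per Ensembl gene, not normalized, with exon coordinates and exonic lengths. The submitters' processing notes name Trimmomatic 0.36, STAR 2.5.2b, featureCounts of Subread 1.5.2 and GRCh38. The use of strand is not given in the sources used here.

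Of 57500 identifiers, 56410 had a symbol. Counts were filtered by filterByExpr at its defaults, scaled by TMM and fitted in edgeR (quasi-likelihood F-test), with Benjamini-Hochberg adjustment over all genes tested (14584 in shTST against WT, 14421 in overTST against WT, 14883 directly) and a threshold of 0.05. Each comparison with WT used its own 8 libraries and the direct one used all 12. Biological coefficients of variation were 5.85%, 6.41% and 6.02%. CPM values were scaled over all 12 libraries, and TPM used the deposited exonic lengths. Log2 values for the pattern comparison used a prior count of 2 and genes with a mean log2 CPM of 3 or more. The members and the 8 lists (97 genes) were chosen with earlier results of these data known. From each list, in each comparison, the 2 genes with the smallest p in each direction among those past the threshold were named, with TST, genes overlapping a member and the 5 nearest genes of CIRBP and CLK1, of which 1 is not reported here. SRPK1, SRPK2, PRPF4B, DYRK2 and HIPK2 were named after their values were seen.

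Alternatives were DESeq2, limma-voom, RLE and upper-quartile scaling, no filter, a minimum of 1 CPM exceeded in 4 or more libraries, another set of fitted libraries, a lowess correction (span 0.3) for exonic length, the replicate number as a block, both together, and leaving out each library. The code was tested on simulated counts. Software was R 4.3.3, edgeR 4.0.16, limma 3.58.1, DESeq2 1.42.0, Python 3.11.15 and matplotlib 3.10.9.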

Additional observations from a re-analysis of the deposited data

Results flagged for a closer look

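CLK1 in WT replicate 2 stood at 9.75 CPM, farther above the other 3 WT libraries (7.84 to 8.0 CPM) than a test for outlying values in groups of 4 allows at the 95% level (Dixon's ratio of gap to range, 0.915). WT replicate 2 was also the deepest library, the lowest of its group for CIRBP, RBM3 and CLK2 and the highest for CLK4. Without it CIRBP was 0.45 above WT in shTST and 0.51 in overTST (log2). TST in shTST replicate 3 stood at 36.6 CPM, above the other 3 shTST libraries by the same rule (0.839). In all, 21 groups were examined and about 1 in 20 exceeds the value by chance. The part of depth in either value was not tested.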

How the results depend on the processing

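CIRBP kept its direction against WT under every alternative, but it was chosen for that rise, so this is no test of it. Every other member kept its call under DESeq2, limma-voom, RLE and upper-quartile scaling, both other filters and another set of fitted libraries. The correction for gene length changed calls of RBM3 and CLK3, and the cause was not tested. RBM3 in overTST fell to 0.14 (edgeR adjusted p = 0.0791) and CLK3 in shTST to −0.18 (0.0703), while CLK3 in overTST rose to 0.24 (0.0119), also 0.24 together with the replicate block (0.00354). CLK4 in the direct comparison turned to −0.027 with the correction and −0.028 with both.

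Same-numbered libraries of different groups correlated at −0.0527 to 0.0801 in their deviations from the group means, and differently numbered ones at −0.106 to 0.0781. Whether the numbers mark a shared experimental day was not stated, and such weak correlations cannot settle it. A replicate block alone gave 2980, 5166 and 5232 genes past the threshold in shTST against WT, overTST against WT and directly, in place of 2346, 4893 and 4907, and changed no call of a member. Upper-quartile scaling moved the share of higher genes among those changed in shTST from 41.6% to 52.7%.

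With each library left out, genes past the threshold numbered 1513 (without shTST replicate 1) to 2336 in shTST against WT, 3979 to 5263 in overTST against WT and 3986 to 5265 directly. In shTST against WT the log2 fold changes ranged from 0.15 to 0.29 for RBM3, −0.010 (without WT replicate 2) to 0.18 for CLK2, −0.25 to −0.17 for CLK3 and 0.068 to 0.28 for CLK4. In overTST against WT they ranged from 0.11 to 0.25 for RBM3, 0.093 to 0.30 for CLK1, −0.18 to 0.0099 (without WT replicate 4) for CLK2, 0.0017 to 0.074 for CLK3 and −0.0089 (without overTST replicate 3) to 0.25 for CLK4. Directly, RBM3 ranged from 0.011 to 0.073, CLK1 ranged from 0.082 to 0.28 and CLK4 from −0.078 to 0.18, turning negative also without shTST replicate 1 (−0.0014) or replicate 3 (−0.049). For the other genes named, 33 of 708 values under other settings and 48 of 676 with a library left out lost their call, and none turned. Counting error is largest for CLK4, with 59 counts in its shallowest library, though below the spread between replicates.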

Other observations

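The lists not given above for the direct comparison of shTST with overTST were as follows. Of the SR-related genes 7 were higher in shTST and 6 lower, with BCLAF1 at a log2 difference of 0.26 (edgeR adjusted p = 0.00169), SRRM2 at 0.19 (0.00442), PPIG at −0.33 (8.12e-05) and CDK11B at −0.27 (0.000218), whose reads are shared with its near-identical copy CDK11A. Of the SR proteins 3 were higher, SRSF10 (0.17, edgeR adjusted p = 0.00866) and SRSF6 (0.16, 0.0268) among them, and 2 lower, SRSF9 (−0.20, 0.00409) and SRSF8 (−0.14, 0.0395). Of the related kinases 5 were higher and 1 lower, with DYRK2 at 0.45 (edgeR adjusted p = 0.000103), HIPK1 at 0.37 (0.000416) and DYRK4 at −0.24 (0.0200). The share of all genes was 16.9% higher and 16.1% lower.

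Among heat shock genes 4 were higher in shTST than in overTST and 4 lower, with HSPA8 at 0.41 (edgeR adjusted p = 5.92e-05), HSPH1 at 0.32 (0.000481), HSF1, the transcription factor of the heat shock response, at −0.31 (6.59e-05) and HSPE1 at −0.23 (0.000298). The cold shock domain proteins YBX1 (−0.31, edgeR adjusted p = 6.22e-05), CARHSP1 (−0.19, 0.00192) and YBX3 were lower and LIN28B higher (0.20, 0.0181). RBMXL1 was higher (0.29, edgeR adjusted p = 0.00368) and RBMX2 lower (−0.34, 0.00158). Of the reported targets 2 were higher, ATR (0.47, edgeR adjusted p = 0.000528) and HIF1A (0.29, 0.000286), and 3 lower, TXN (−0.25, 0.000644) and RTN3 (−0.17, 0.00291) among them.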
